A study of Mus musculus with 8 samples.

Results

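The 29 genes described here make cholesterol, control that synthesis, or move and store the product: 18 enzymes of the route from acetyl-CoA to cholesterol, 5 genes of the sterol-sensing switch (Srebf1, Srebf2, Scap, Insig1 and Insig2) and 6 transport and storage genes (Npc1l1, Abcg5, Abcg8, Abca1, Stard4 and Soat2). They were chosen by name from pathway knowledge, with earlier results of these data known, and not by a cut on measured values. Each was found as 1 row among the 55487 named rows of the count table. All 29 passed the filter on low counts, which left 14011 genes to test. The RNA came from ileal crypt cells of C57BL/6 mice, an inbred laboratory strain. One group of 4 libraries came from mice given CPT-11 at 20 mg/kg for 7 days, and the other 4 came from mice given vehicle. CPT-11 (irinotecan) is a chemotherapy prodrug whose active product traps topoisomerase I on DNA, and diarrhoea is a known side effect. Crypts, the epithelial pits that hold the stem and dividing cells of the gut, were released from opened ileum with EDTA and shaking and then split into single cells with trypsin. No cell sorting, age or sex is given. Whether the 4 libraries of a group are 4 animals is not stated either, and each p-value therefore reflects only how these libraries vary, which may be technical in part.

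Cholesterol is built from acetyl-CoA through mevalonate and the isoprenoids to squalene, which is closed into lanosterol and trimmed to cholesterol. When sterol in the endoplasmic reticulum falls, SCAP carries the SREBP proteins to the Golgi, where proteases free a fragment that enters the nucleus and switches on these genes. When sterol is ample, the INSIG proteins hold SCAP back, so the amount of Srebf1 or Srebf2 RNA is not a measure of SREBP activity. In the small intestine, cholesterol is also taken up from the lumen by NPC1L1, returned to it by the ABCG5 and ABCG8 pair, esterified by the enzyme that Soat2 encodes, and exported at the basal side through ABCA1.

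Promoters of this pathway are known to pair a sterol regulatory element with binding sites for NF-Y (the CCAAT box) and SP1 (the GC box). RefSeq windows of build GRCm38.p6, from 250 bases before to 50 bases after a start, were found for 24 of the 29 genes, and both strands were searched. The core letters CACNCCAC were in the windows of 3 of the 24 genes (12.5%), Acat2, Hmgcs1 and Insig1, against 7.1% of all 27025 genes with a window. The letters CCAAT were in 21 of 24 (87.5%) against 41.1%, GGGCGG in 20 of 24 (83.3%) against 38.2%, and CACGTG in 6 of 24 (25.0%) against 8.1%. The 27025 genes were not limited to those tested here, and some genes had several windows. Of the 33 windows of the 24 genes, CACNCCAC was in 3, against 6.2% of all windows, and CCAAT in 22, against 37.4%. GGGCGG was in 24 of them, against 35.7%, and CACGTG in 7, against 7.2%. Within the windows of the 24 genes, 0 matches of different motifs overlapped, and no match was assigned to a factor. The 250 bases before the start are printed for 3 of the genes that rose after CPT-11, Hmgcs1, Mvd and Insig2. Msmo1, which also rose, has a window that is not printed. The DNA between the divergent starts of Abcg5 and Abcg8, which were not called, is printed too. No exon of GENCODE M21 overlaps any of the 4 stretches, and capitals mark CACNCCAC and CCAAT, the latter read as ATTGG where it lies on the other strand.
Hmgcs1, chr13:119690101-119690350, plus strand: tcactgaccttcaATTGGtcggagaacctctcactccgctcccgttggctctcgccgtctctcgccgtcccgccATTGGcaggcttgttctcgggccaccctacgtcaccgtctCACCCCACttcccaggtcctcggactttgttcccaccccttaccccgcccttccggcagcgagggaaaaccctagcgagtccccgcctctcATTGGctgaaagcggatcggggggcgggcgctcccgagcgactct
Mvd, chr8:122443423-122443672, minus strand: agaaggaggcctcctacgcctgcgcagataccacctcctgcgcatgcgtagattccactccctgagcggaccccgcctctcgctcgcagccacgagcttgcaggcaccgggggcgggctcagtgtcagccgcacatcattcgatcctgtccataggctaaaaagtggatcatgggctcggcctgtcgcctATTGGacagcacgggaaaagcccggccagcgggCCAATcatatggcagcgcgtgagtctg
Insig2, chr1:121332590-121332839, minus strand, the outermost of its 3 RefSeq windows: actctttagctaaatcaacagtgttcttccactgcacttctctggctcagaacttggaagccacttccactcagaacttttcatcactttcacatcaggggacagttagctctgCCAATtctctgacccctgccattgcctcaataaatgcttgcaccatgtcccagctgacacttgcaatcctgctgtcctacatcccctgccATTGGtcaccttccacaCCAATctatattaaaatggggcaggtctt
Abcg5 to Abcg8, chr17:84683012-84683120, plus strand: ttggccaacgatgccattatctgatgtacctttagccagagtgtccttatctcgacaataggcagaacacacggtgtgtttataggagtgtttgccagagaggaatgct
In Hmgcs1 the CACCCCAC match began 136 bases before the start and lay between CCAAT matches on either side. Mvd held 2 CCAAT matches and Insig2 held 3, and neither held the CACNCCAC letters in the stretch shown. The starts of Abcg5 and Abcg8 lay 110 bases apart, and the 109 bases between them held none of these letters. A match is only a match of letters, and a missing one says nothing about the factor outside the window.

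Total counts ran from 20790164 to 23479121 per library. The library labelled CPT-11 replicate 2 stood apart: its rank correlation with the other CPT-11 libraries was between 0.931 and 0.962, against 0.987 to 0.990 among vehicle libraries. Its longest genes lay at a median of -0.44 (log2) and its shortest at 0.58 against the vehicle mean, and CPT-11 replicate 4 showed -0.26 and 0.25. The cell content of the libraries was read from markers fixed in lists. Summed epithelial markers were at 10286 to 11851 CPM (counts scaled to the library size) in vehicle and 11245 to 15260 in CPT-11 libraries. These markers are not particular to crypt cells, so they did not test the crypt label. In some other lists, part of the markers moved with treatment: 3 of 7 stem cell markers fell (summed level 1589 to 1897 in vehicle, 487 to 776 after CPT-11), as did 3 of 10 of dividing cells (884 to 1161 and 512 to 795), while 2 of 14 enterocyte markers rose (8292 to 12484 and 13565 to 35592). Of 5 tested B cell and plasma cell markers, 4 rose from a low summed level of 1.44 to 5.89 to between 7.45 and 16.1, and Mzb1 was at 0 in some library. Of 7 tested macrophage and dendritic markers 1 rose, with sums of 35.2 to 49.0 in vehicle and 38.7 to 56.2 after CPT-11, and Cd163 was at 0 in all libraries. No marker was called in the lists for Paneth (6 tested), goblet (7), enteroendocrine (5), tuft (3), T (6), fibroblast and muscle (5), endothelial (1) and red cells (2). Summed goblet markers stood apart in CPT-11 replicates 2 and 4, at 38963 and 21210 CPM, against 11534 to 15360 in vehicle and 12113 and 11172 in CPT-11 replicates 1 and 3. In bulk samples, fewer cells of a type and less RNA per cell cannot be told apart, and the part of these shifts in the results was not tested.

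After CPT-11, 5 of the 29 genes rose and 0 fell at an adjusted p below 0.05 (edgeR's quasi-likelihood test, Benjamini-Hochberg adjustment over all 14011 genes). The 5 were the synthesis enzymes Hmgcs1, Mvd, Sqle and Msmo1 and the sterol sensor Insig2. Over all genes tested, 5.5% were called, 2.98% as higher and 2.52% as lower. At an unadjusted p below 0.05, 8 of the 29 were higher and 1, Scap, was lower, where 13.4% and 11.2% of all genes were. The 4 CPT-11 libraries lay above all vehicle libraries for 7 of the 29 genes, where 8.41% of all genes did so, and below them for 1, where 10.1% did. The median log2 fold change was 0.29 over the 29 genes, 0.36 over the 18 enzymes and 0.014 over all genes tested. DESeq2 called the same 5 genes and Tm7sf2, all higher. It also called more of the whole table, 1884 genes with 1045 of them higher, where edgeR called 770 with 417 higher.

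**Figure D1:**
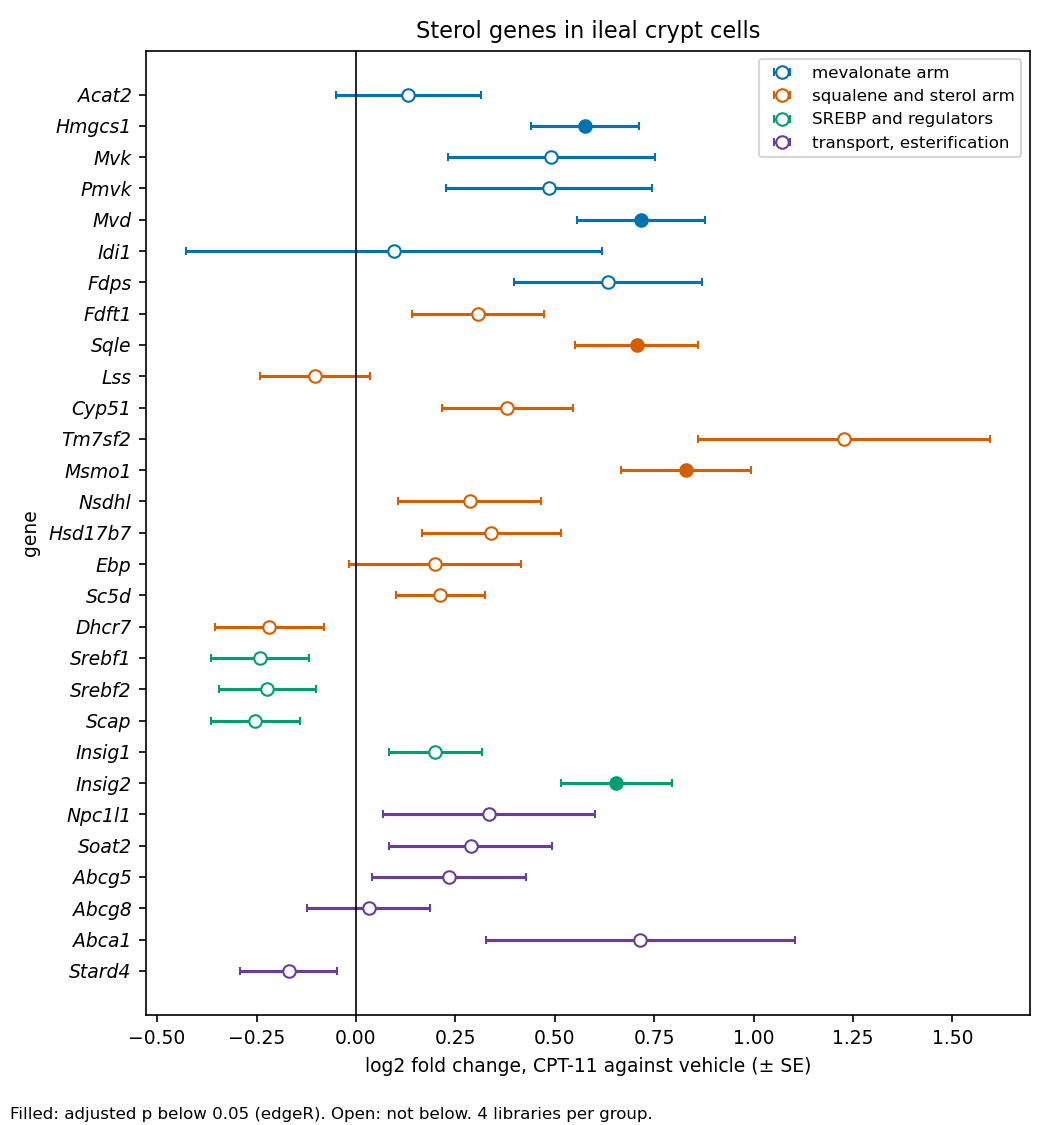
Log2 fold change of each of the 29 genes, CPT-11 against vehicle, with its SE (bars), in pathway order and coloured by group; filled points have an adjusted p below 0.05. The 4 filled enzymes lie between 0.58 and 0.83 and Insig2 lies at 0.66, while Srebf1, Srebf2 and Scap lie below 0.

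In the mevalonate arm, 2 of 7 genes rose, 0 fell, and the fold change of all 7 was above 0, with a median of 0.49 (log2). Of all 14011 genes tested, 7188 had a fold change above 0. Hmgcs1, which makes HMG-CoA from acetoacetyl-CoA and acetyl-CoA, was at 104, 92.3, 77.3 and 104 CPM in the vehicle libraries and at 147, 150.4, 122 and 144 CPM in the CPT-11 libraries. The groups did not overlap, and Hmgcs1 was higher after CPT-11 by 0.58 ± 0.14 on the log2 scale (SE, n = 4 and 4), a 1.49-fold difference (adjusted p = 0.0396, edgeR). Mvd, the decarboxylase that turns mevalonate diphosphate into isopentenyl diphosphate, was at 23.9, 25.3, 27.8 and 26.2 CPM in vehicle and 40.6, 53.7, 31.6 and 43.8 CPM after CPT-11. Every CPT-11 library lay above every vehicle library, with replicate 3 the nearest to them, and the fold change was 1.64 (log2 0.72 ± 0.16, adjusted p = 0.0329, edgeR). An overlapping gene model shares part of the Mvd locus, as does an antisense model at Hmgcs1, and whether reads were counted by strand is not given in the sources used here.

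The other mevalonate genes did not pass. Fdps, which makes farnesyl diphosphate, the branch point to sterols and to protein prenylation, was at 79.0 to 98.2 CPM in vehicle and at 130, 195, 77.9 and 144 CPM in CPT-11 replicates 1 to 4. Replicate 3 lay below every vehicle library and the other 3 lay above them (log2 0.63 ± 0.24, adjusted p = 0.142, edgeR). The kinases Mvk and Pmvk showed the same arrangement of libraries, each with a log2 fold change of 0.49 ± 0.26, as did Acat2, the cytosolic thiolase at the entry, with 0.13 ± 0.18. For Fdps, Mvk and Pmvk, much of the value came from CPT-11 replicate 2. Without it their log2 fold changes were 0.42, 0.26 and 0.20, and without replicates 2 and 4 they were 0.24, 0.021 and 0.033. Acat2 was at 43.2, 44.4 and 42.3 CPM in CPT-11 replicates 1, 2 and 4 and at 25.2 CPM in replicate 3. Its log2 fold change was 0.071 without replicate 2 and -0.046 without replicates 2 and 4. With 1 library left out, it ran from 0.067 to 0.29. Idi1, the isomerase that makes dimethylallyl diphosphate, was at 71.9, 56.1, 54.4 and 69.7 CPM in vehicle and at 102, 9.87, 57.9 and 99.0 CPM after CPT-11. The single low value, 160 counts in CPT-11 replicate 2, went with a fold change of 0.10 ± 0.52 (log2, adjusted p = 0.923, edgeR) that became 0.47 (adjusted p = 0.174) without that library. Acat2, Idi1 and Fdps carried counts that were not whole numbers in all 8 libraries, and which gene models share those reads is not known here. Among the genes called, Hmgcs1 and Msmo1 had such counts in 6 libraries and Sqle in 1, while Mvd and Insig2 had whole counts throughout.

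From squalene to cholesterol, 2 of 11 genes rose and 0 fell. The median log2 fold change was 0.31, and 9 of 11 were above 0, where 7188 of all 14011 genes tested were. Sqle, squalene epoxidase, an oxygen-dependent and rate-controlling step of this arm, was at 52.1, 38.4, 44.5 and 48.8 CPM in vehicle and at 81.7, 79.3, 57.2 and 81.7 CPM after CPT-11. The groups did not overlap, and CPT-11 replicate 3 lay closest to vehicle (1.63-fold, log2 0.71 ± 0.15, adjusted p = 0.0297, edgeR). Msmo1, the methyl sterol oxidase that starts removal of the methyl groups at carbon 4, was at 50.8, 52.0, 47.3 and 57.9 CPM in vehicle and at 98.1, 103, 65.0 and 104 CPM after CPT-11. Its groups did not overlap either, again with replicate 3 the lowest, and it had the largest fold change of the 5 genes called, 1.78-fold (log2 0.83 ± 0.16, adjusted p = 0.0195, edgeR).

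Tm7sf2, a sterol reductase of the same arm, had the largest fold change of all 29 genes and did not pass. It was at 20.4, 21.1, 22.1 and 23.9 CPM in vehicle and at 32.1, 101, 26.9 and 44.9 CPM after CPT-11 (log2 1.23 ± 0.37, adjusted p = 0.0819, edgeR). The groups did not overlap, but the value rested on CPT-11 replicate 2: without it the log2 fold change was 0.67 (adjusted p = 0.0317), and without replicates 2 and 4 it was 0.44 (adjusted p = 0.0487). Tm7sf2 overlaps Vps51 on the same strand and its counts were not whole in any library. Sc5d, which introduces the late double bond of the ring, was at 61.0 to 71.7 CPM in vehicle and 72.7 to 85.3 CPM after CPT-11, groups that did not overlap but differed by only 0.21 ± 0.11 (log2, adjusted p = 0.264, edgeR). Cyp51, the lanosterol demethylase, was at 87.4 to 105 CPM in vehicle and at 99.3 to 152 CPM after CPT-11, which overlap (log2 0.38 ± 0.16, adjusted p = 0.188).

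The remaining enzymes of this arm ranged from -0.22 to 0.34 on the log2 scale, none of them called. Fdft1, squalene synthase, was at 0.31 ± 0.16, Hsd17b7 at 0.34 ± 0.17, Nsdhl at 0.29 ± 0.18 and the isomerase Ebp at 0.20 ± 0.22. Lss, which closes the ring to lanosterol, was at -0.10 ± 0.14 and Dhcr7, the last reductase, at -0.22 ± 0.14, the only 2 of the 18 enzymes below 0. Dhcr7 was at 47.2 to 62.0 CPM in vehicle and 40.4 to 53.7 CPM after CPT-11.

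**Figure D2:**
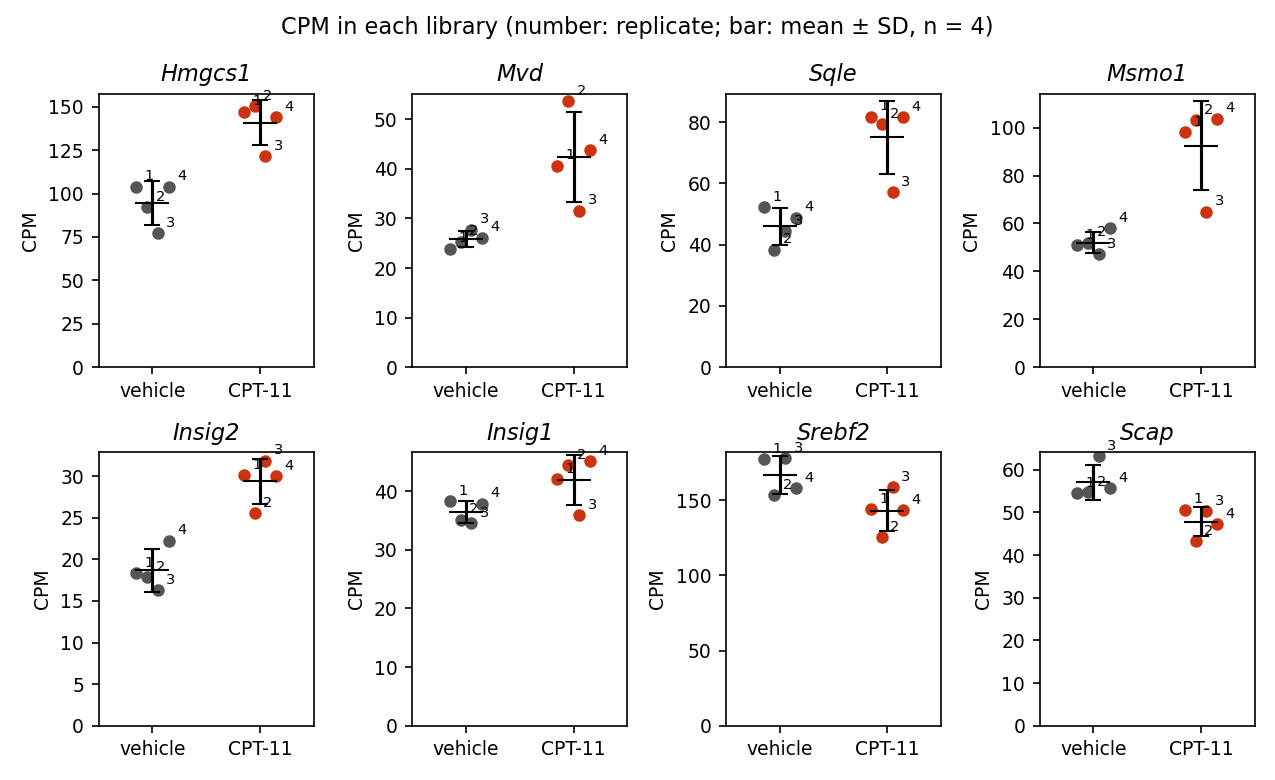
CPM of Hmgcs1, Mvd, Sqle, Msmo1, Insig2, Insig1, Srebf2 and Scap in each library, numbered by replicate, with the mean and SD of 4 libraries per group. For the first 5 genes the groups do not overlap, and CPT-11 replicate 3 is the lowest CPT-11 library for Hmgcs1, Mvd, Sqle and Msmo1 but the highest, at 31.9 CPM, for Insig2.

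Of the 5 switch genes, Insig2 rose and none fell. Insig2, one of the proteins that retain SCAP, was at 18.3, 17.9, 16.3 and 22.3 CPM in vehicle and at 30.1, 25.5, 31.9 and 30.1 CPM after CPT-11. The groups did not overlap (1.57-fold, log2 0.66 ± 0.14, adjusted p = 0.0265, edgeR). Its close relative Insig1, itself a known SREBP target, was at 34.5 to 38.3 CPM in vehicle and 35.9 to 45.1 CPM after CPT-11 (log2 0.20 ± 0.12, adjusted p = 0.311). The log2 ratio of Insig2 to Insig1 was 0.45 higher after CPT-11, from -0.95 ± 0.14 to -0.50 ± 0.26 (SD, n = 4 and 4). An exact permutation test over 70 arrangements, two-sided, gave p = 0.0571, and 0.0856 after adjustment over 3 ratios. The smallest p possible in this test is 0.0286. The 3 ratios were chosen after the data were seen, and the adjustment does not cover that choice.

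The transcription factors and their escort did not pass the test. Srebf2, the SREBP gene tied chiefly to cholesterol, was at 177, 154, 178 and 158 CPM in vehicle and at 144, 125, 159 and 144 CPM after CPT-11, with only CPT-11 replicate 3 within the vehicle range (log2 -0.22 ± 0.12, adjusted p = 0.282, edgeR). Srebf1, tied chiefly to fatty acids, was at 62.2 to 80.9 CPM in vehicle and 55.9 to 67.9 CPM after CPT-11 (log2 -0.24 ± 0.12, adjusted p = 0.252). Scap was at 54.5, 54.8, 63.2 and 55.8 CPM in vehicle and at 50.7, 43.3, 50.2 and 47.3 CPM after CPT-11. Its groups did not overlap, the one gene of the 29 lower in all 4 CPT-11 libraries, with a log2 fold change of -0.25 ± 0.11 (unadjusted p = 0.0464, adjusted p = 0.195, edgeR). The log2 ratio of Srebf2 to Srebf1 differed by 0.012 between the groups (exact permutation test, p = 0.857).

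None of the 6 transport and storage genes passed, in either direction; at an unadjusted p below 0.05 the count was also 0, and DESeq2 called none. Npc1l1, the cholesterol uptake protein of the brush border and the target of ezetimibe, was at 306, 478, 323 and 316 CPM in vehicle and at 374, 617, 539 and 266 CPM after CPT-11. The groups overlapped, since vehicle replicate 2 was high and CPT-11 replicate 4 was the lowest of all 8 libraries (log2 0.33 ± 0.27, adjusted p = 0.448, edgeR; log2 0.15 without CPT-11 replicate 2). Abca1, the efflux transporter and a known LXR target, was at 10.3, 12.3, 7.81 and 5.84 CPM in vehicle and at 14.8, 9.44, 27.4 and 7.76 CPM after CPT-11. Its log2 fold change of 0.71 ± 0.39 (adjusted p = 0.279) rested on CPT-11 replicate 3, and was 0.23 without it; summed fibroblast and muscle markers were also highest in that library, at 104 CPM against 7.72 to 42.3 in the other 7, and their part was not tested. Soat2, which esterifies cholesterol for chylomicrons, was at 0.29 ± 0.20 (0.085 without CPT-11 replicate 2), and Stard4, a carrier of sterol between membranes, at -0.17 ± 0.12.

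Abcg5 and Abcg8 encode the partners of one sterol exporter and are read from divergent starts. Abcg5 was at 117 to 181 CPM in vehicle and 130 to 221 CPM after CPT-11 (log2 0.23 ± 0.19), and Abcg8 at 86.9 to 122 CPM and 82.6 to 117 CPM (log2 0.03 ± 0.15). The log2 ratio of Abcg5 to Abcg8 was 0.42 to 0.56 in vehicle and 0.59 to 0.91 after CPT-11, groups that did not overlap (difference 0.19, exact permutation test, p = 0.0286, the smallest possible, 0.0856 after adjustment over 3 ratios). This ratio, too, was chosen after the data were seen. The gene models overlap on opposite strands, so reads of the shared part cannot be told apart if strand was not used.

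Within each group, the libraries highest for the transport genes were also high for enterocyte markers. Vehicle replicate 2 was the highest vehicle library for 5 of the 6 transport genes and for 12 of the 14 enterocyte markers. CPT-11 replicate 2 was the highest CPT-11 library for 4 of the 6 and CPT-11 replicate 3 for the other 2, while for the enterocyte markers these libraries were highest for 7 and 5. The summed level of the 6 genes was 782, 1059, 803 and 806 CPM in vehicle and 888, 1252, 1122 and 707 CPM after CPT-11. Across both groups the ranks differed. CPT-11 replicate 4 had 13565 CPM of enterocyte markers, above every vehicle library (8292 to 12484), but the lowest transport sum of any library. The part of enterocyte content in the transport gene levels was not tested.

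**Figure D3:**
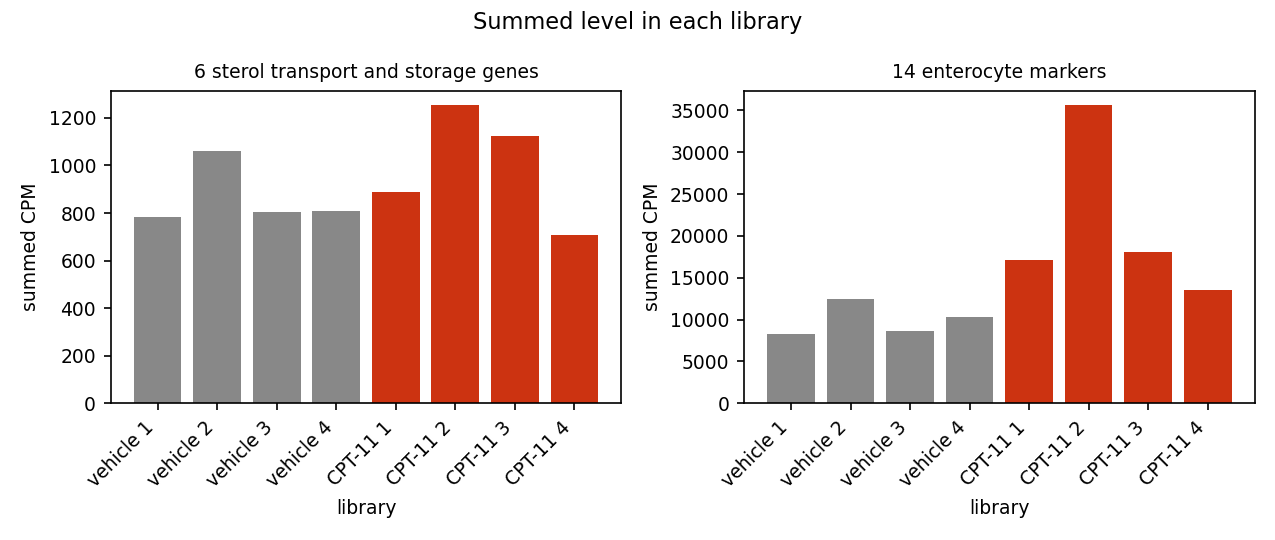
Summed CPM in each library of the 6 transport and storage genes (left) and of the 14 enterocyte markers (right), vehicle in grey and CPT-11 in red. Vehicle replicate 2 (1059 and 12484 CPM) and CPT-11 replicate 2 (1252 and 35592 CPM) are the highest of their groups in both panels, and CPT-11 replicate 4 is the lowest CPT-11 library in both.

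The enzymes split the CPT-11 libraries in another way. Of the 18 enzymes, 16 lay above all vehicle libraries in CPT-11 replicate 1, 14 in replicate 2 and 14 in replicate 4, but 7 in replicate 3, where 9 lay below all of them. The median deviation of the 18 from the vehicle mean was 0.39, 0.68 and 0.60 (log2) in replicates 1, 2 and 4 and -0.14 in replicate 3. The vehicle libraries lay between -0.069 and 0.072. Replicate 3 was high for other genes of the set (Insig2, Abca1 and Hsd17b7), so its values were not low throughout. The same counts by library were not made over all genes tested. The part of library-wide shifts, such as those with gene length, in the enzyme counts was not tested.

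**Figure D4:**
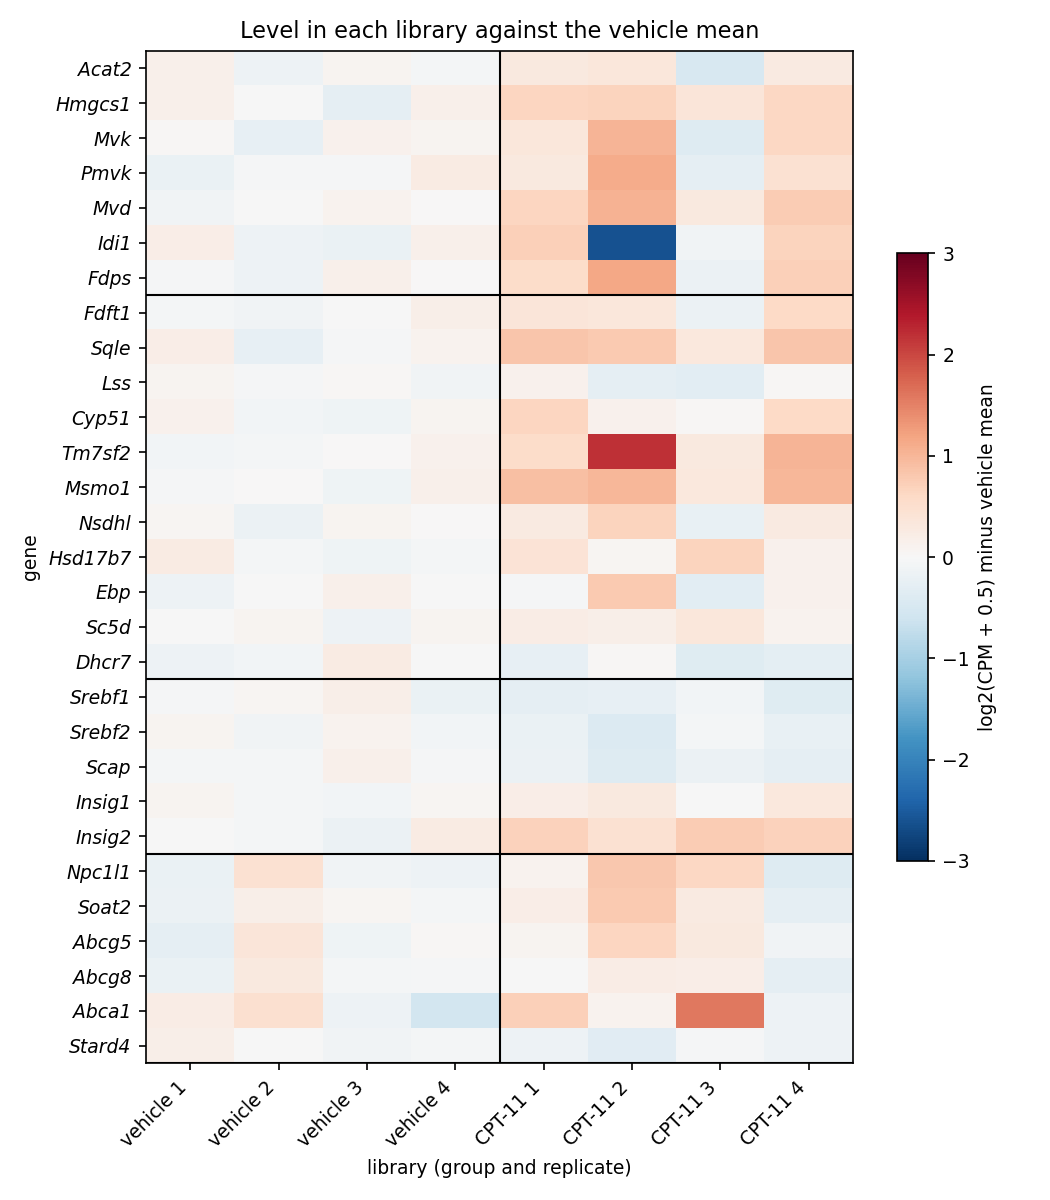
Heat map of log2(CPM + 0.5) minus the vehicle mean for the 29 genes (rows, by group) in the 8 libraries (columns); red is above and blue below the vehicle mean. Most enzymes are red in CPT-11 replicates 1, 2 and 4 and pale or blue in replicate 3, and the darkest cells are Idi1 and Tm7sf2 in replicate 2.

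The 5 calls depended on single libraries. When any of the vehicle libraries 1, 2 and 3 or of the CPT-11 libraries 1 and 4 was left out, the fit left 0 of the 29 genes called, with 236 to 477 genes called in the whole table in place of 770. Leaving out vehicle replicate 4 kept Insig2 and Msmo1. Without CPT-11 replicate 2 the 5 were called with Tm7sf2, and without replicate 3 with Tm7sf2, Fdps and Mvk. Without replicates 2 and 4 they were called with Tm7sf2 and Hsd17b7. Calls in the whole table also rose in those fits, to 1177, 1522 and 1212 genes in that order. The highest adjusted p over the alternatives was 0.128 for Hmgcs1, 0.113 for Mvd, 0.106 for Sqle, 0.0816 for Msmo1 and 0.103 for Insig2 (edgeR), each with 1 library left out. The log2 fold change of the 5 stayed positive under all 18 alternatives tried for each, from 0.49 to 0.63 for Hmgcs1, 0.49 to 0.83 for Mvd, 0.60 to 0.81 for Sqle, 0.65 to 0.96 for Msmo1 and 0.59 to 0.75 for Insig2.

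Levels of the genes were compared per kilobase of exon. In vehicle, Npc1l1 was the highest of the 29 at 79.7 ± 18.3 CPM per kb (SD, n = 4), then Abcg5 at 52.7 ± 10.1, Soat2 at 43.1 ± 4.59 and Ebp at 32.1 ± 2.73. Npc1l1 did not overlap Abcg5, and Soat2 did not overlap Ebp, but the ranges of Abcg5 and Soat2 overlapped. From Ebp to Insig1, ranks 4 to 18, each gene overlapped the next, so the order of neighbouring genes was not resolved. Genes further apart in this run could be separate: the range of Ebp lay above that of Srebf2, and that of Srebf2 above that of Srebf1. Srebf2 was at 23.2 ± 1.76 and Srebf1 at 12.8 ± 1.39 CPM per kb. Tm7sf2 (4.97 ± 0.339), Hsd17b7 (2.45 ± 0.310), Lss (2.396 ± 0.136) and Abca1 (0.876 ± 0.274) had the 4 lowest means. The ranges of Hsd17b7 and Lss overlapped, as did those of Tm7sf2 and Insig2, the next gene above it. With the length column of the deposited table in place of the exon union, added after seeing the data, Npc1l1 stayed first and Abca1 last, but ranks between them moved: Fdps from 9 to 2, Dhcr7 from 20 to 8, Msmo1 from 21 to 12, Sc5d from 14 to 6 and Tm7sf2 from 26 to 21, so that Tm7sf2 was no longer among the lowest 4.

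Genes around the pathway were read from lists of names, and 57 of 61 passed the filter. Of these, 2 rose and 3 fell, where 2.98% and 2.52% of all genes tested did. The median log2 fold change of the 57 was -0.04. The 3 that fell were all among 16 tested genes of fatty acid synthesis and its SREBP-1 targets. Fads1, the delta-5 desaturase of polyunsaturated fatty acids, was at 24.3, 26.2, 27.2 and 20.7 CPM in vehicle and 12.0, 9.81, 10.0 and 11.5 CPM after CPT-11. It was lower by 2.27-fold (log2 -1.18 ± 0.14, adjusted p = 0.0022, edgeR), the groups did not overlap, and it was called under all 18 alternatives. Fads2, the delta-6 desaturase, was at 167 to 193 CPM and 65.6 to 123 CPM (log2 -0.87 ± 0.18, adjusted p = 0.0241), and Acss2, which makes acetyl-CoA from acetate, at 46.3 to 50.4 CPM and 26.9 to 38.8 CPM (log2 -0.58 ± 0.13, adjusted p = 0.0327). Me1, malic enzyme, a source of NADPH for lipid synthesis, rose: it was at 8.06 to 11.4 CPM in vehicle and 13.2 to 21.6 CPM after CPT-11 (log2 0.90 ± 0.19, adjusted p = 0.0239). The calls of Fads2, Acss2 and Me1 were lost when any vehicle library or CPT-11 replicate 1 was left out, that of Me1 also without CPT-11 replicate 4, and that of Acss2 also with the length trend removed; the highest adjusted p was 0.0890, 0.145 and 0.0817. The other 12 tested genes of this list did not pass, among them Fasn at -0.07 ± 0.16, Acly at -0.14 ± 0.16 and Scd2 at 0.57 ± 0.23; these 3 were picked after their values were seen.

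**Figure D5:**
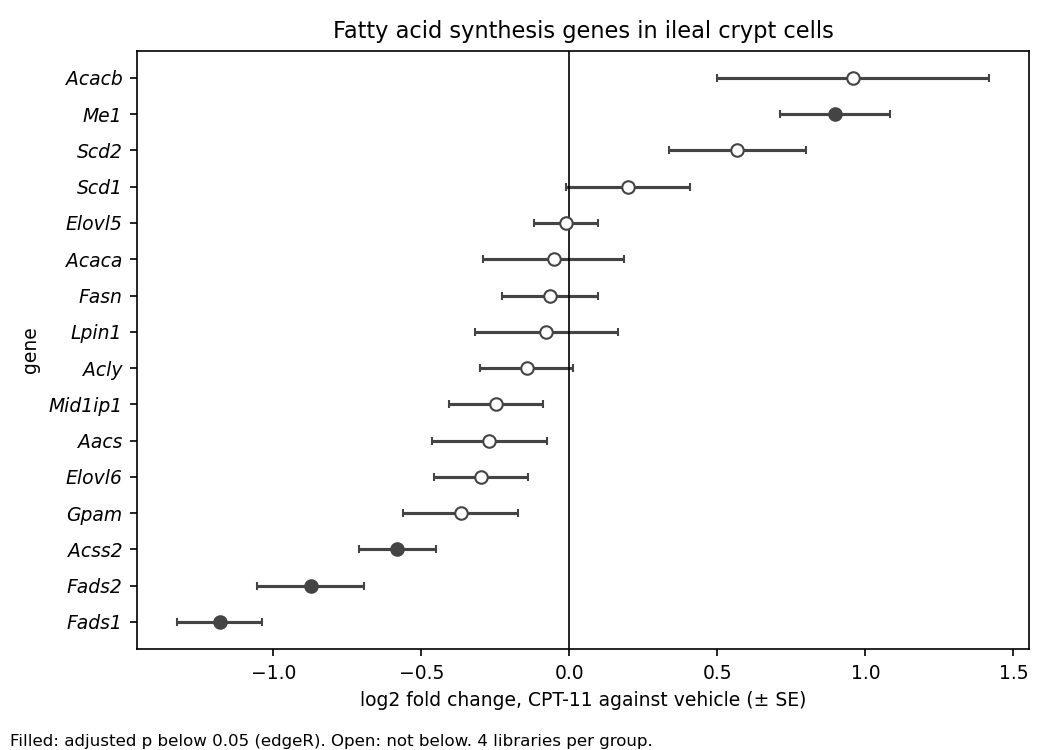
Log2 fold change with SE of the 16 tested genes of fatty acid synthesis, CPT-11 against vehicle; filled points have an adjusted p below 0.05. Me1 at 0.90 is filled on the right, and Acss2, Fads2 and Fads1, from -0.58 to -1.18, are filled on the left.

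Among 16 genes of other sterol transport and storage, Lipa rose and none fell. Lipa, the lysosomal lipase that frees cholesterol from taken-up esters, was at 9.90, 17.1, 11.02 and 11.6 CPM in vehicle and 21.1, 24.2, 24.0 and 17.4 CPM after CPT-11 (log2 0.81 ± 0.20, adjusted p = 0.0432, edgeR), groups that did not overlap. Its call was lost without vehicle replicate 1, 3 or 4 and without CPT-11 replicate 1, 3 or 4 (highest adjusted p = 0.143). Apoa1, an enterocyte apolipoprotein, ran from 4284 to 8033 CPM in vehicle and from 8324 to 30213 CPM after CPT-11 (log2 1.35 ± 0.44, adjusted p = 0.104); CPT-11 replicate 2 was the highest, and without it the log2 fold change was 0.71. Osbpl2 was at -0.29 ± 0.12.

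The machinery that frees SREBP or degrades its partners had 0 of 8 genes called. Mbtps1, the site-1 protease that makes the first cut in SREBP, was at 110 to 124 CPM in vehicle and 56.4 to 99.3 CPM after CPT-11, groups that did not overlap (log2 -0.55 ± 0.17, adjusted p = 0.0874, edgeR). The membrane ubiquitin ligases Rnf145 and Rnf139 had log2 fold changes of -0.75 ± 0.29 and 0.60 ± 0.25, and Erlin2 one of -0.37 ± 0.16. The isoprenoid branch, which feeds ubiquinone, dolichol and prenylated proteins, had 0 of 10 called: Nus1 was at 0.40 ± 0.13, Coq2 at -0.30 ± 0.14, Pggt1b at 0.23 ± 0.14 and Pdss1 at -0.22 ± 0.17. Of LXR and oxysterol genes, 0 of 7 tested were called, with Rxra at -0.38 ± 0.11 (adjusted p = 0.0739), Mylip at 0.58 ± 0.26, Lpcat3 at 0.29 ± 0.17 and Cyp27a1 at 0.38 ± 0.31.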

How the data were processed

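RNA-seq of 8 ileal crypt libraries was used, 4 vehicle and 4 CPT-11. The deposited table holds gene-level estimated counts made by the authors, some of them not whole numbers. Per the submitters' processing notes, Bowtie2 2.4.1 and GRCm38.p6 were used; the counting tool, its strand setting and the order of steps are unknown here. Estimated counts were rounded to whole numbers. The 543 of 56030 rows with no gene name (0.325 to 0.662% of counts) were left out. Genes were filtered with edgeR's filterByExpr (minimum count 10, minimum total 15), scaled by TMM and tested with the robust quasi-likelihood F test, two-sided, with Benjamini-Hochberg adjustment over 14011 genes and a threshold of 0.05 (edgeR 4.0.16, limma 3.58.1, DESeq2 1.42.0, R 4.3.3, Python 3.11.15). The SE is the log2 fold change divided by the square root of F. CPM values use the TMM-scaled library size; heat map values use a pseudocount of 0.5. Levels per kilobase use exon unions of GENCODE M21. The test was tried on simulated counts first.

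The 29 genes and the other lists were chosen with earlier results of these data known. All 29 are named, with up to 4 genes of each other list by smallest p and, where a sum needs it, markers at 0. Some genes that this rule would name are not reported here. Alternatives were other scalings, filters and tools, a replicate block, removal of a gene length trend, Acat2 summed with Acat3, and leaving out libraries. Fdps summed with Gm43738, the table's length column, the 3 ratios of gene pairs and the CACGTG motif were added after seeing the data. Promoter sequences are from RefSeq; no window was found for Fdps, Fdft1, Sqle, Stard4 and Soat2. Of the 29 genes, 14 overlap another gene model and 5 had counts that were not whole in all libraries.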

Additional observations from a re-analysis of the deposited data

Results flagged for a closer look

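In 6 of the 58 groups of 4 libraries tested (29 genes, each in vehicle and in CPT-11), one library lay far from the other 3: its gap to the nearest, divided by the range of the group, was above Dixon's 95% critical value. Chance flags about 1 in 20 groups. CPT-11 replicate 3 was the low library for 3 enzymes: Sqle at 57.2 CPM against 79.3 to 81.7, Msmo1 at 65.0 CPM against 98.1 to 104, and Acat2 at 25.2 CPM against 42.3 to 44.4. Hsd17b7 was high in vehicle replicate 1, at 14.9 CPM against 11.4 to 11.9. Scap was high in vehicle replicate 3, at 63.2 CPM against 54.5 to 55.8. Npc1l1 was high in vehicle replicate 2, at 478 CPM against 306 to 323.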

How the results depend on the processing

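The 5 genes were called under RLE and upper-quartile scaling, a stricter filter, limma-voom, DESeq2, quality weights, removal of the length trend and without CPT-11 replicates 2 and 4; with no filter Hmgcs1 was lost (adjusted p = 0.0688). The median of the 29 genes stayed between 0.18 and 0.30 (log2) under all 18 alternatives, and the count of the 29 that fell stayed at 0. Quality weights called 9 of the 29, all higher. The table as a whole gave 1884 genes with DESeq2 (1045 higher, 839 lower), 3172 with quality weights (1548 and 1624), 1196 without the length trend (572 lower) and 1212 without CPT-11 replicates 2 and 4 (637 and 575). The 57 other pathway genes gave 10 calls with DESeq2 (5 and 5), 14 with quality weights (6 and 8), 4 higher without the length trend, and 10 without CPT-11 replicates 2 and 4 (6 higher). Leaving out 1 library at a time gave 236 to 1522 genes (132 to 769 higher, 104 to 753 lower), 0 to 8 of the 29, and 1 to 8 other pathway genes (0 to 5 higher, 1 to 5 lower). Fewer libraries enter those fits; beyond that, the cause of each change was not tested.

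Signs turned only for genes that were not called. Idi1 was at -0.33 with limma-voom and between -0.18 and 0.47 with 1 library left out, with -0.15 without CPT-11 replicate 4. Lss was at 0.057 with quality weights and 0.12 without the length trend. Ebp was at -0.019 with quality weights, -0.17 without CPT-11 replicates 2 and 4 and between -0.052 (without CPT-11 replicate 2) and 0.34 with 1 library left out. Abcg8 was at -0.034 with quality weights and between -0.028 and 0.13 with 1 library left out, below 0 without vehicle replicate 1 and without CPT-11 replicate 2 or 3. Acat2 was at -0.046 without CPT-11 replicates 2 and 4, and Pdss1 at 0.008 with quality weights.

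With the replicate number as a block, 3 of the 29 were called, all higher: Hmgcs1, Msmo1 and Sqle (Mvd 0.0642 and Insig2 0.0517 adjusted p). The block gave 3 other pathway genes, 1 of them higher, with Me1 (adjusted p = 0.0607) and Acss2 (0.0550) lost, and Idi1 at -0.25. Same-numbered libraries correlated at 0.31, 0.17, -0.16 and 0.12 in their deviations, and vehicle libraries 1, 2 and 4 matched the CPT-11 library of their own number best, while 3 matched CPT-11 replicate 4. Since not every correlation was above 0.1 and the labels name no shared source, the numbers were not taken to pair the libraries. With 4 libraries a group, genes with low or uneven counts (Abca1, from 137 counts) are measured least firmly.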
